A study of Mus musculus with 12 samples.

Results

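Luminal progenitor and alveolar regulators are the genes that mark or direct the hormone receptor-negative luminal cells of the mammary gland and the milk-making alveolar cells that descend from them. The genes followed, by their symbols, across all tumors of the series were *Elf5*, *Ehf*, *Kit*, *Aldh1a3*, *Cd14*, *Stat5a*, *Stat5b*, *Prlr* and *Cyp24a1*. These are 9 of the 47593 genes in the table. They were found by symbol alone, and each symbol matched 1 row.

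The tumors were 12 mammary tumors from 9 female MADM-mutant mice, of which 7 gave 1 tumor, 1 gave tumors 3 and 4, and 1 gave tumors 10, 11 and 12. In MADM (mosaic analysis with double markers), mitotic recombination in a heterozygous animal makes rare GFP-labelled cells that lack *Brca1* and p53. The conditional *Brca1* allele and the p53 null allele lay on one copy of chromosome 11, and *MMTV-Cre*, which is active in mammary epithelium, induced the recombination. The labels give the genotype of all 12 as MADM RG;GR alleles on a mixed background and the treatment as none, and the age of these mice is not given in the sources used here. All tumors therefore formed 1 group with no normal gland beside it, and the comparisons below are between genes, between mice and between tumors of 1 mouse. Bulk pieces of tumor were sequenced, so a low value in a tumor can stand for fewer cells of a type or for less RNA per cell, and these cannot be told apart.

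In the normal gland, prolactin binds its receptor PRLR on luminal cells, the kinase JAK2 then phosphorylates STAT5A and STAT5B, and these enter the nucleus and switch on milk genes and *Cish*. ELF5, an ETS transcription factor of the luminal progenitor, works with STAT5 to form alveoli. KIT, a receptor tyrosine kinase, ALDH1A3, an enzyme that makes retinoic acid, and CD14, a co-receptor for bacterial lipopolysaccharide, are widely used markers of luminal progenitors, the cells from which BRCA1-linked breast cancers are thought to arise.

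Values are TPM, transcripts per 1000000, which are scaled for gene length and can be compared between genes. Differences, means and SDs named as log2 are on the log2(TPM + 1) scale with tumors of 1 mouse averaged (n = 9 mice). The TPM sums of the tumors ran from 999770 to 999909, from 21415 to 23443 genes were above 0, and mitochondrially encoded genes took 3.66% to 7.40% of the TPM. No read numbers are held, so the depth of each tumor is unknown.

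The labelled tissue was checked against 7 epithelial genes, *Cdh1*, *Epcam*, *Krt8*, *Krt18*, *Cldn3*, *Cldn4* and *Cldn7*. Tumor 2 had all 7 between 0 and 0.54 TPM. It also had *Cd79a*, a part of the B cell receptor, at 609 TPM, against at most 41.6 TPM in any other tumor. Tumor 8 had the 7 epithelial genes between 1.14 and 128 TPM, *Dcn*, a matrix proteoglycan of fibroblasts, at 1732 TPM and the macrophage receptor gene *Csf1r* at 222 TPM. The median of the 7 epithelial genes lay between 320 and 597 TPM in the other 10 tumors. The defining genes of mammary epithelium were thus nearly absent from tumor 2 and low in tumor 8. The mean levels and the tests are therefore also given without both, a setting chosen after the values were seen.

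**Figure D1:**
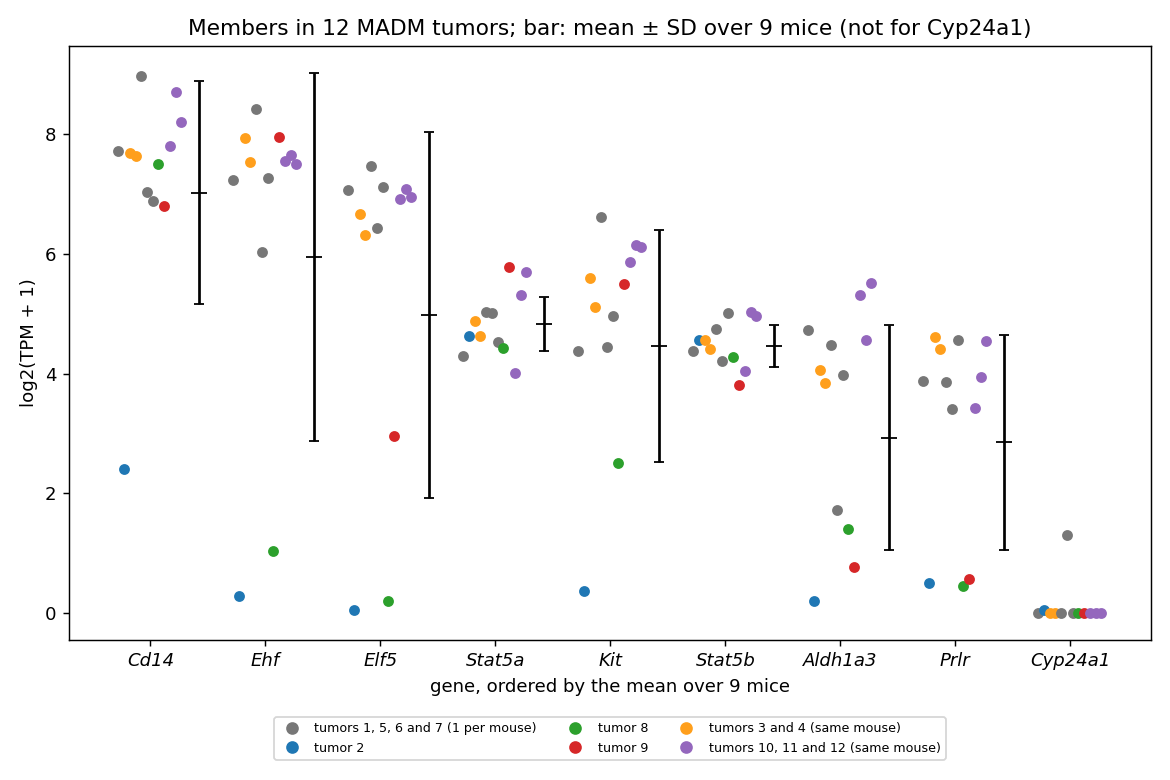
Level of each of the 9 genes as log2(TPM + 1) (vertical axis) in each of the 12 tumors (points, coloured by mouse or tumor), with the mean and SD over 9 mice as a black bar except for *Cyp24a1*, mostly listed at 0; the genes are ordered by that mean. *Stat5a* and *Stat5b* stay in a narrow range, between 13.0 and 53.8 TPM, while *Elf5* and *Ehf* are near 0 in tumors 2 and 8 and *Elf5* and *Prlr* also drop in tumor 9.

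Ordered by the mean log2 level, the genes ran from *Cd14* (7.03 ± 1.87, SD, n = 9 mice) through *Ehf* (5.95 ± 3.08), *Elf5* (4.97 ± 3.06), *Stat5a* (4.83 ± 0.45), *Kit* (4.46 ± 1.94), *Stat5b* (4.46 ± 0.35), *Aldh1a3* (2.93 ± 1.89) and *Prlr* (2.85 ± 1.80) to *Cyp24a1*, which was listed at 0 in 10 of the 12 tumors. Only the last step, from *Prlr* to *Cyp24a1*, had the same direction in 9 of 9 mice. The difference between each other pair of neighbours was smaller than its SD over mice, from 0.0016 ± 1.93 for *Kit* over *Stat5b* to 1.53 ± 1.70 for *Stat5b* over *Aldh1a3*, so these levels did not differ beyond their spread. Leaving out tumors 2 and 8 changed the SD of these differences in both directions. It fell from 2.22 to 0.75 for *Cd14* over *Ehf* and from 1.70 to 1.35 for *Stat5b* over *Aldh1a3*. It rose from 1.59 to 1.81 for *Ehf* over *Elf5* and from 0.93 to 1.00 for *Aldh1a3* over *Prlr* without these tumors. Without them (n = 7 mice) the means were 7.62 ± 0.79 for *Cd14*, 7.46 ± 0.75 for *Ehf*, 6.36 ± 1.54 for *Elf5*, 5.33 ± 0.82 for *Kit*, 4.91 ± 0.47 for *Stat5a*, 4.47 ± 0.39 for *Stat5b*, 3.54 ± 1.64 for *Aldh1a3* and 3.54 ± 1.37 for *Prlr*. *Kit* then stood above *Stat5a*, and the mean of *Ehf* was already 6.66 without the mouse of tumor 2 alone. The difference between neighbours was still smaller than its SD for each pair except *Prlr* and *Cyp24a1*.

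The genes fell apart by how much they varied. Among the 16779 genes with a mean of 1 TPM or more, the median SD of log2 levels over mice was 0.57. *Elf5* and *Ehf* each varied more than 99.7% of these genes, *Kit* more than 96.5%, *Aldh1a3* more than 96.1%, *Cd14* more than 96.0% and *Prlr* more than 95.2%. *Stat5a* varied more than 33.9% and *Stat5b* more than 17.3%. Without tumors 2 and 8 the shares for *Elf5*, *Aldh1a3* and *Prlr* were 96.3%, 97.0% and 94.6%, those for *Ehf*, *Kit* and *Cd14* were 78.0%, 81.5% and 80.2%, and those for *Stat5a* and *Stat5b* were 51.8% and 38.0%. The high rank of *Elf5*, *Aldh1a3* and *Prlr* was therefore also seen among the epithelial tumors, where tumor 9 was low in all 3.

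*Elf5* encodes the ETS factor that commits luminal progenitors to the alveolar fate. Its level ran from 0.04 TPM in tumor 2 over a median of 110 TPM to 176 TPM in tumor 5. The values fell into separate groups, with tumors 2 and 8 at 0.04 and 0.14 TPM, tumor 9 at 6.77 TPM and the other 9 between 79.0 and 176 TPM. Tumor 9 had its 7 epithelial genes between 82.6 TPM (*Cdh1*) and 914 TPM (*Epcam*), with a median of 562 TPM. It was the lowest of the 10 epithelial tumors in *Cdh1*, *Krt8*, *Krt18*, *Cldn3* and *Cldn7*, and its sum over the 7 genes, 3243 TPM, was also the lowest of the 10, with tumors 8 and 2 at 156 and 1.87 TPM. A low *Elf5* value was thus found both without and with an epithelial profile.

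*Ehf* encodes a related ETS factor of epithelial cells and is the next protein-coding gene on one side of *Elf5*. In GRCm38, *Ehf* lies at chr2:103263433-103303278 on the minus strand and *Elf5* at chr2:103411688-103450989 on the plus strand, 108 kb apart. *Ehf* ran from 0.21 TPM in tumor 2 and 1.04 TPM in tumor 8 over a median of 183 TPM to 342 TPM in tumor 5. Tumor 9, low in *Elf5*, had *Ehf* at 249 TPM, the second highest value. *Ehf* was 36.7 times *Elf5* in tumor 9, against a median ratio of 1.74 and a lowest ratio of 0.757 in tumor 6.

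Over mice, *Ehf* exceeded *Elf5* by 0.98 ± 1.59 on the log2 scale, with 8 of 9 mice in that direction. In the exact two-sided sign-flip permutation test over 9 mice p was 0.027, and 0.055 after Benjamini-Hochberg adjustment over 2 contrasts, so the difference did not pass. The mouse of tumor 9 contributed a difference of 5.01, and without it the mean was 0.47. With tumors 2 and 8 left out it was 1.10 (exact permutation over 7 mice, adjusted p = 0.16). The 2 transcripts share no stretch of 75 bases, the length of a read, so no read aligned over its full length matches both.

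The other 2 genes of a list of epithelium-specific ETS factors were *Elf3* and *Spdef*. *Elf3* ran from 0 TPM in tumor 2 and 0.18 TPM in tumor 8 to 167 TPM in tumor 7 and stood at 12.2 TPM in tumor 9, so it was low in the same tumors as *Elf5*. *Spdef*, a factor of secretory luminal and goblet cells, was at 7.23 TPM in tumor 2 and under 1 TPM elsewhere. Of these 4 genes, *Ehf* alone was high in tumor 9.

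**Figure D2:**
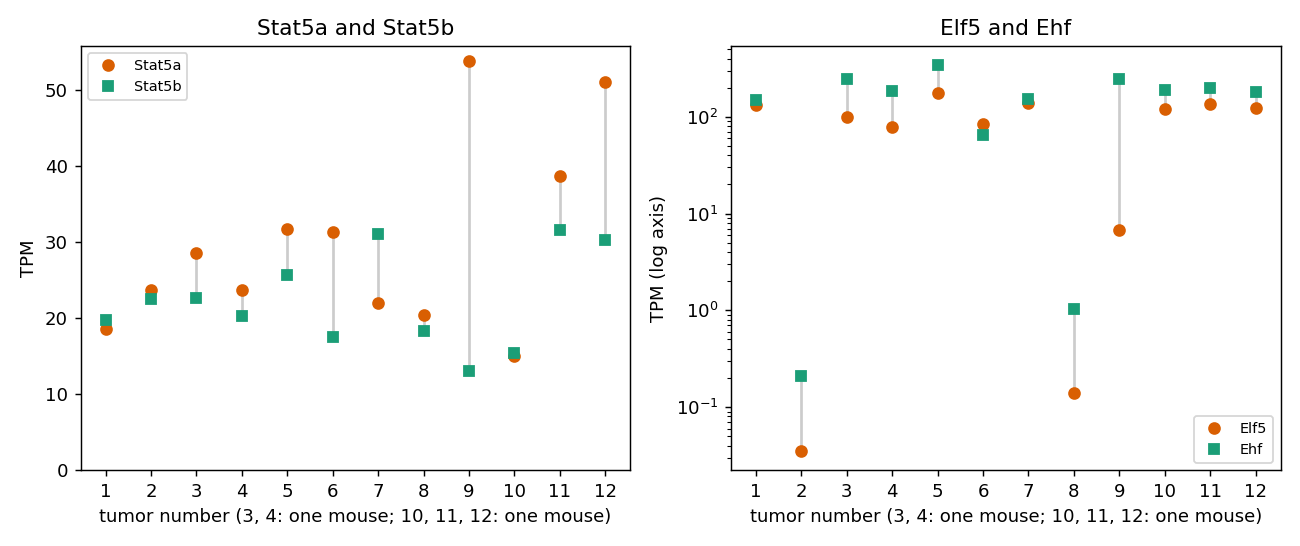
TPM (vertical axis; linear on the left, logarithmic on the right) of *Stat5a* and *Stat5b* (left) and of *Elf5* and *Ehf* (right) in each of the 12 tumors (horizontal axis), with a grey line joining the 2 genes in a tumor. Tumor 9 has the widest gap in both panels, with *Stat5a* at 4.14 times *Stat5b* and *Ehf* at 36.7 times *Elf5*.

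*Kit* encodes the receptor of stem cell factor and lies at chr5:75574916-75656722 in GRCm38. It ran from 0.28 TPM in tumor 2 and 4.65 TPM in tumor 8 over a median of 38.9 TPM to 97.1 TPM in tumor 5. Tumor 9 was at 44.3 TPM and so was not low in *Kit*, unlike *Elf5*. The ligand gene *Kitl* ran from 1.32 TPM in tumor 2 to 60.3 TPM in tumor 12, and *Kit* was above *Kitl* in 10 of 12 tumors. Tumors 5, 11 and 12 held the 3 highest values of *Kitl* and also the 3 highest of *Kit*.

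Mast cells also use *Kit*, so 6 of their genes, *Cpa3*, *Mcpt4*, *Cma1*, *Tpsb2*, *Ms4a2* and *Fcer1a*, were read beside it. Their summed level ran from 0.108 to 31.1 TPM. The highest sums were in tumors 4 and 3, with the mast cell protease gene *Mcpt4* at 9.69 and 8.10 TPM, where *Kit* was 33.5 and 47.2 TPM. In tumor 7 *Mcpt4*, *Cma1*, *Tpsb2*, *Ms4a2* and *Fcer1a* were at 0 while *Kit* was at 30.2 TPM, and in tumor 12 the same 5 genes were at 0 with *Kit* at 68.6 TPM. They were at 0 in tumor 8 too, where *Kit* was 4.65 TPM. Over 9 mice r between *Kit* and the mast cell median was 0.46 (exact permutation p = 0.18, adjusted over 12 relations p = 0.24) and rho was 0.66 (exact p = 0.060). Without the 2 mice farthest from the median of *Kit*, those of tumors 2 and 8, r was 0.37.

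*Aldh1a3* encodes the retinaldehyde dehydrogenase whose activity is used to sort luminal progenitors, and lies at chr7:66390890-66427517 in GRCm38. It ran from 0.15 TPM in tumor 2 over a median of 15.2 TPM to 44.7 TPM in tumor 12. Tumor 9 at 0.71 TPM, tumor 8 at 1.64 TPM and tumor 6 at 2.31 TPM were also low, and the other 8 tumors were between 13.3 and 44.7 TPM. Tumor 6 thus separated *Aldh1a3* from *Elf5*, which was 85.0 TPM there.

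The other retinoic acid genes of a list of 12 did not share one pattern. *Aldh1a1* and *Aldh1a2*, which encode sister enzymes, stayed at or below 2.66 TPM and 15.5 TPM. *Crabp2*, a retinoic acid carrier, was highest in tumors 3 and 4 (217 and 205 TPM), where *Aldh1a3* was 15.6 and 13.3 TPM. *Stra6*, the retinol uptake receptor, was highest in tumors 9 and 8 (149 and 130 TPM), 2 tumors in which *Aldh1a3* was low. In tumor 2, 9 of the 12 genes had their lowest value, ties at 0 included. Between *Kit* and *Aldh1a3*, r was 0.69 over 9 mice (exact permutation p = 0.029, adjusted p = 0.070) and rho was 0.52, and without the mice of tumors 2 and 8 r was 0.27, so the relation rests on those 2 mice.

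*Cd14* had the highest mean of the 9 genes, although *Ehf* exceeded it in tumors 3, 7 and 9. It ran from 4.26 TPM in tumor 2 over a median of 202 TPM to 504 TPM in tumor 5, and the other 11 tumors were all at 110 TPM or more. Tumor 8, low in *Elf5*, *Ehf*, *Kit*, *Aldh1a3* and *Prlr*, had *Cd14* at 181 TPM, and tumor 9 had it at 110 TPM. Of the 2 tumors with few epithelial transcripts, only tumor 2 was low in *Cd14*.

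Macrophages and monocytes are the best known source of *Cd14*, and 7 of their genes, *Csf1r*, *Adgre1*, *Cd68*, *Lyz2*, *Itgam*, *Mrc1* and *Fcgr3*, were read beside it. All 7 were at 1 TPM or more in every tumor, and their sum ran from 453 TPM in tumor 2 to 3855 TPM in tumor 8. Tumor 5, with the highest *Cd14*, had a macrophage median of 70.8 TPM, and tumor 11, with *Cd14* at 419 TPM, had 69.3 TPM. Tumor 8 had the highest macrophage median, 212 TPM. Over 9 mice r was 0.82 (exact permutation p = 0.076, adjusted p = 0.13) with a rho of 0.03, without the 2 mice farthest from the median of *Cd14* (those of tumors 2 and 5) r was -0.01, and without the mice of tumors 2 and 8 it was -0.42. The part of the macrophages in the *Cd14* values was not tested.

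Other genes of lipopolysaccharide sensing, from a list of 6 with *Cd14*, differed in how much they varied. *Tlr4*, the signalling receptor, ran from 7.34 TPM in tumor 9 to 20.8 TPM in tumor 5. *Ly96*, its partner protein, ran from 10.3 to 38.5 TPM and was highest in tumor 9. *Myd88*, the adaptor, ran from 28.8 to 82.5 TPM. *Lbp*, which carries lipopolysaccharide to CD14, ran from 0.33 TPM in tumor 2 and 4.58 TPM in tumor 9 to 392 TPM in tumor 1.

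**Figure D3:**
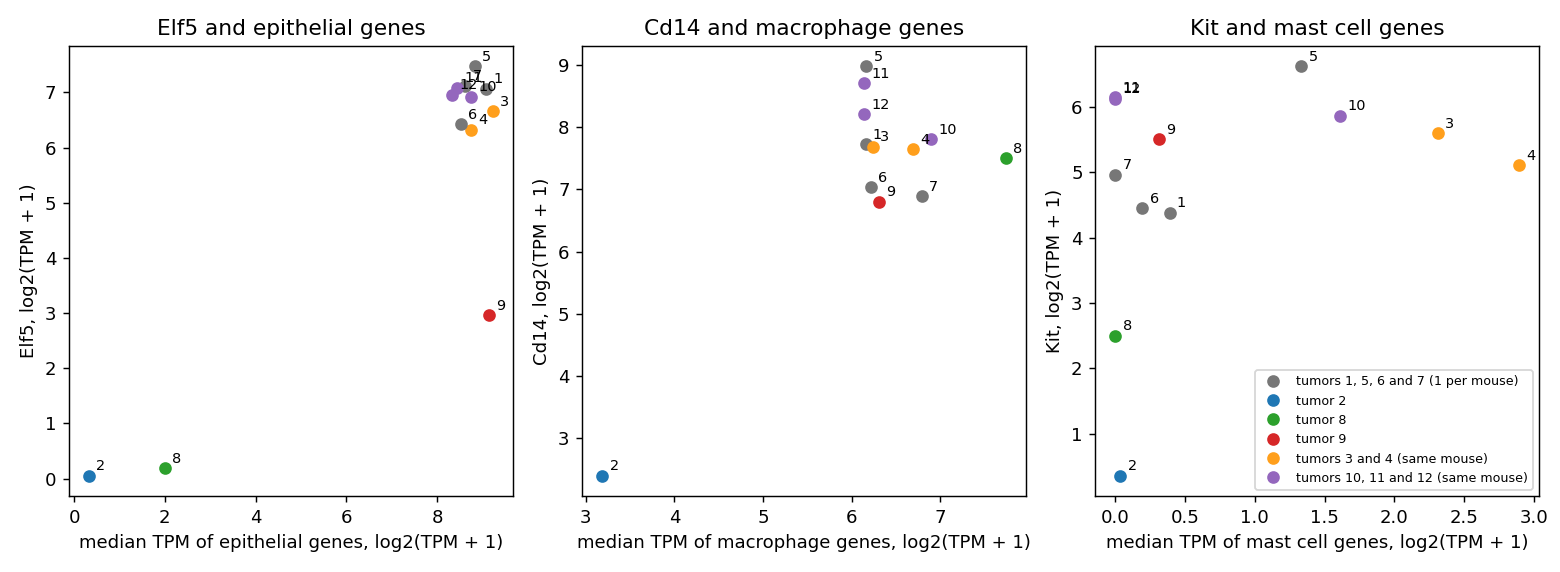
Levels of *Elf5* (left), *Cd14* (middle) and *Kit* (right) against the median of the epithelial, macrophage and mast cell genes, all as log2(TPM + 1); each point is 1 of the 12 tumors, numbered. Tumors 2 and 8 are at the low end of the epithelial genes and tumor 9 is not, tumor 2 stands apart in *Cd14*, and the tumors whose mast cell median is 0 (7, 8, 11 and 12) range in *Kit* from 4.65 to 69.7 TPM.

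*Prlr* encodes the prolactin receptor, whose loss in mice prevents alveoli from forming, and lies at chr15:10177238-10349180 in GRCm38. It ran from 0.36 TPM in tumor 8 over a median of 13.6 TPM to 23.4 TPM in tumor 3. Tumors 2 and 9 were at 0.41 and 0.48 TPM, and the other 9 tumors were between 9.58 and 23.4 TPM, a gap with no value inside it. A second gene on the same strand, Gm21973, overlaps *Prlr* in 203 exonic bases and was at 0 in every tumor. *Ghr*, the growth hormone receptor, ran from 0.79 TPM in tumor 2 to 37.1 TPM in tumor 8 and exceeded *Prlr* in 10 of 12 tumors.

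The same 3 tumors, 2, 8 and 9, were the lowest in *Elf5* and in *Prlr*. Over all 9 mice r between these genes was 0.95 (exact permutation, adjusted p = 0.038) and rho 0.75 (exact permutation, adjusted p = 0.22), and this r alone passed among the 12 relations tested. With tumors 2 and 8 left out r was 0.94 and rho 0.50, and r did not pass (exact permutation, adjusted p = 0.32), with tumor 9 then the only low one. Because the tumors fell into separate groups in *Elf5*, relations with it are also given within the 6 mice whose tumors had 79.0 TPM or more, a division made after the values were seen that also narrows the range of *Elf5*. Within them r between *Elf5* and *Prlr* was 0.10 (exact permutation p = 0.78) and rho was 0.20, and no relation was detectable in these 6 mice. In the same 6 mice r was 0.67 between *Elf5* and *Ehf* (exact p = 0.13), 0.55 with *Kit* (exact p = 0.27), 0.13 with the epithelial median (exact p = 0.76) and -0.55 with the milk gene median (exact p = 0.26). None of these 5 passed after Benjamini-Hochberg adjustment (lowest adjusted p = 0.44, exact permutation).

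*Stat5a* and *Stat5b* encode the transcription factors that the prolactin and growth hormone receptors activate, with STAT5A the main form in mammary epithelium. Both genes lie on chromosome 11 in GRCm38, *Stat5b* at chr11:100780731-100850724 on the minus strand and *Stat5a* at chr11:100859351-100885169 on the plus strand, 8626 bases apart. *Brca1* lies 604 kb from *Stat5a* on the chromosome that carries the MADM alleles.

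*Stat5a* ran from 15.1 TPM in tumor 10 over a median of 26.2 TPM to 53.8 TPM in tumor 9, with a mean of 29.2 ± 10.8 TPM (SD, n = 9 mice). *Stat5b* ran from 13.0 TPM in tumor 9 over a median of 21.5 TPM to 31.6 TPM in tumor 11, with a mean of 21.7 ± 5.38 TPM. Unlike *Elf5* and *Prlr*, neither gene was low in tumors 2 and 8, which had *Stat5a* at 23.7 and 20.4 TPM and *Stat5b* at 22.6 and 18.3 TPM. *Stat5a* was above *Stat5b* in 9 of 12 tumors, by 4.14 times in tumor 9, and below it most clearly in tumor 7, at 0.705 times.

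Over mice, *Stat5b* minus *Stat5a* was -0.37 ± 0.69 on the log2 scale, with 7 of 9 mice below 0 (exact two-sided sign-flip permutation p = 0.13, adjusted over 2 contrasts p = 0.13). The smallest p this test can give is 0.0039. The difference between the paralogs therefore did not pass. Between the 2 genes r was -0.51 (exact permutation p = 0.16, adjusted p = 0.24) and rho -0.17, and without the 2 mice farthest from the median of *Stat5a*, those of tumors 1 and 9, r was -0.05. With tumors 2 and 8 left out, *Stat5b* minus *Stat5a* was -0.44 (exact permutation over 7 mice, adjusted p = 0.17) and r was -0.63 (exact permutation, adjusted p = 0.49).

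The paralogs share reads in part. Of the 75-base windows of the *Stat5a* transcript 10.1% also occur in *Stat5b*, and 7.53% the other way. The longest shared stretch is 324 bases at coding positions 571 to 894 of both, counted from the first base of the start codon, and its first 150 bases are shown because a read inside it matches both genes and can be assigned only by its mate.
*Stat5a* and *Stat5b*, shared coding bases: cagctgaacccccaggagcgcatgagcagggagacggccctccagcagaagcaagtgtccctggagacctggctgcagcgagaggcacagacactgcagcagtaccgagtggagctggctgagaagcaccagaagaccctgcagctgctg
The values of both genes are uncertain by whatever share of such reads was placed wrongly. *Stat5a* also overlaps *Stat3* on the opposite strand by 72 exonic bases, with *Stat3* at up to 447 TPM, and whether counting used strand is not stated in the sources used here.

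Targets of STAT5 were read from the list of the prolactin and growth hormone pathway. STAT5 dimers bind the GAS motif TTCNNNGAA, a palindrome that reads the same on both strands. It occurs in 8.30% of 32851 mouse promoters of 300 bases (250 before to 50 after the start, RefSeq, GRCm38.p6). The promoters of the classic target genes *Cish* and *Csn2*, and 1 of 3 *Prlr* promoters, hold it and are shown with the motif in capitals.
*Cish*, chr9:107296409-107296708, plus strand: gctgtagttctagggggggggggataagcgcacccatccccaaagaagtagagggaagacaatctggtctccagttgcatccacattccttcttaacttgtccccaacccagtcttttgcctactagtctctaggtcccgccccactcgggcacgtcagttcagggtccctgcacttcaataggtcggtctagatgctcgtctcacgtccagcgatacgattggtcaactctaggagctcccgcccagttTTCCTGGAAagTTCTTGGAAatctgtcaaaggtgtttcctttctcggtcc
*Csn2*, chr5:87699376-87699675, minus strand: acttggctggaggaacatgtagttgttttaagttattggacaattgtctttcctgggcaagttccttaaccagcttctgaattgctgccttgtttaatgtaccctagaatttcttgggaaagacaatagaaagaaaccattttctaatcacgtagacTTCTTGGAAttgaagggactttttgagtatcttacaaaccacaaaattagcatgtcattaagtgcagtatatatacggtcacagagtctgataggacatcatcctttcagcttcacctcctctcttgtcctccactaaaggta
*Prlr*, second promoter, chr15:10223656-10223955, plus strand: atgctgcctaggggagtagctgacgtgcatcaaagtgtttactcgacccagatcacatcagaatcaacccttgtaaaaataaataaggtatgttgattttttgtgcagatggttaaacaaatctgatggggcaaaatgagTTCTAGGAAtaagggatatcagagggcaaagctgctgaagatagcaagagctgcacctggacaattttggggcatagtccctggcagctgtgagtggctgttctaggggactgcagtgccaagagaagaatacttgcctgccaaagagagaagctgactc
*Cish* has 2 matches, starting at positions 1 and 12 where the start site is 1, *Csn2* has 1 that begins 93 bases before the start, and *Prlr* 1 that begins 110 bases before it. The windows of *Elf5*, *Kit*, *Stat5a* and *Stat5b* and the other 2 of *Prlr* hold no such letters. Promoters of *Ehf*, *Aldh1a3*, *Cyp24a1* and *Socs2* were not analysed here. A match is a description of these letters only.

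*Cish*, a STAT5-induced inhibitor of cytokine receptors, ran from 1.70 TPM in tumor 2 over a range of 5.86 to 14.8 TPM in 10 tumors to 32.1 TPM in tumor 9. The tumor with the highest *Stat5a* was thus also the highest in *Cish*. Over 9 mice r was 0.72 (exact permutation p = 0.042, adjusted p = 0.083) and rho 0.72 (exact p = 0.037, adjusted p = 0.22). Without the 2 mice farthest from the median of *Stat5a*, those of tumors 1 and 9, r was 0.43. It was 0.46 without tumor 9 alone and 0.71 without tumor 1 alone, so the relation rests on tumor 9. Leaving out the mice of tumors 2 and 8 gave 0.89.

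The other pathway genes of this list of 15 included members of every step. The ligand gene *Prl* was at 0 in every tumor, and *Gh*, growth hormone, was at 62.1 TPM in tumor 9, 1.11 TPM in tumor 2 and 0 elsewhere. The kinase genes *Jak1*, *Jak2* and *Tyk2* ran from 56.6 to 131, 15.7 to 62.1 and 16.2 to 47.4 TPM. *Socs2*, an inhibitor of growth hormone signalling, was lowest in tumors 9 and 8 (13.9 and 15.1 TPM) and at most 114 TPM. *Socs1* was highest in tumor 9 at 57.5 TPM. *Socs3* was 17.3 TPM in tumor 9 and 1.76 TPM in tumor 2, against 75.2 to 360 TPM in the other 10. Tumor 9 held the highest value of 5 of the 15 genes (*Gh*, *Jak1*, *Stat5a*, *Cish* and *Socs1*) and the lowest of 3.

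Of 6 milk genes, the end point of this pathway, 2 had their highest value in tumor 9. *Csn2*, beta-casein, was 3323 TPM in tumor 9, against at most 127 TPM in any other tumor. *Csn1s1*, alpha-casein, was also highest there at 1855 TPM, while *Csn3*, kappa-casein, was 26.5 TPM there and between 313 and 2236 TPM in the other 9 tumors with an epithelial profile. *Csn1s2a*, *Lalba* and *Wap* were highest in tumor 6, at 55.0, 25.3 and 3.76 TPM, against 45.8, 2.01 and 1.08 TPM in tumor 9. Tumor 9 thus combined the highest *Stat5a*, *Cish* and *Csn2* with a *Prlr* of 0.48 TPM and an *Elf5* of 6.77 TPM. Other values that stood apart in tumor 9 were *Cited1*, a gene of hormone-sensing luminal cells, at 337 TPM, against at most 8.94 TPM elsewhere, and the smooth muscle gene *Myh11* at 250 TPM, against at most 3.44 TPM. Of the mature luminal genes listed with *Cited1*, *Foxa1* was also highest there, at 19.0 TPM. *Areg* and *Prom1* were at 1.02 and 0.63 TPM, each the lowest of the 10 epithelial tumors, and *Esr1* and *Pgr* at 1.57 and 0.07 TPM. Of the myoepithelial genes listed with *Myh11*, *Acta2* was at 22.2 TPM, its lowest value. *Cnn1*, *Trp63* and *Oxtr* were at 1.04, 0.30 and 1.37 TPM in tumor 9. *Cd79a* was 41.6 TPM and *Cd3e*, a T cell gene, 15.0 TPM there, and the part of lymphocytes in its *Stat5a* and *Cish* values was not tested.

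**Figure D4:**
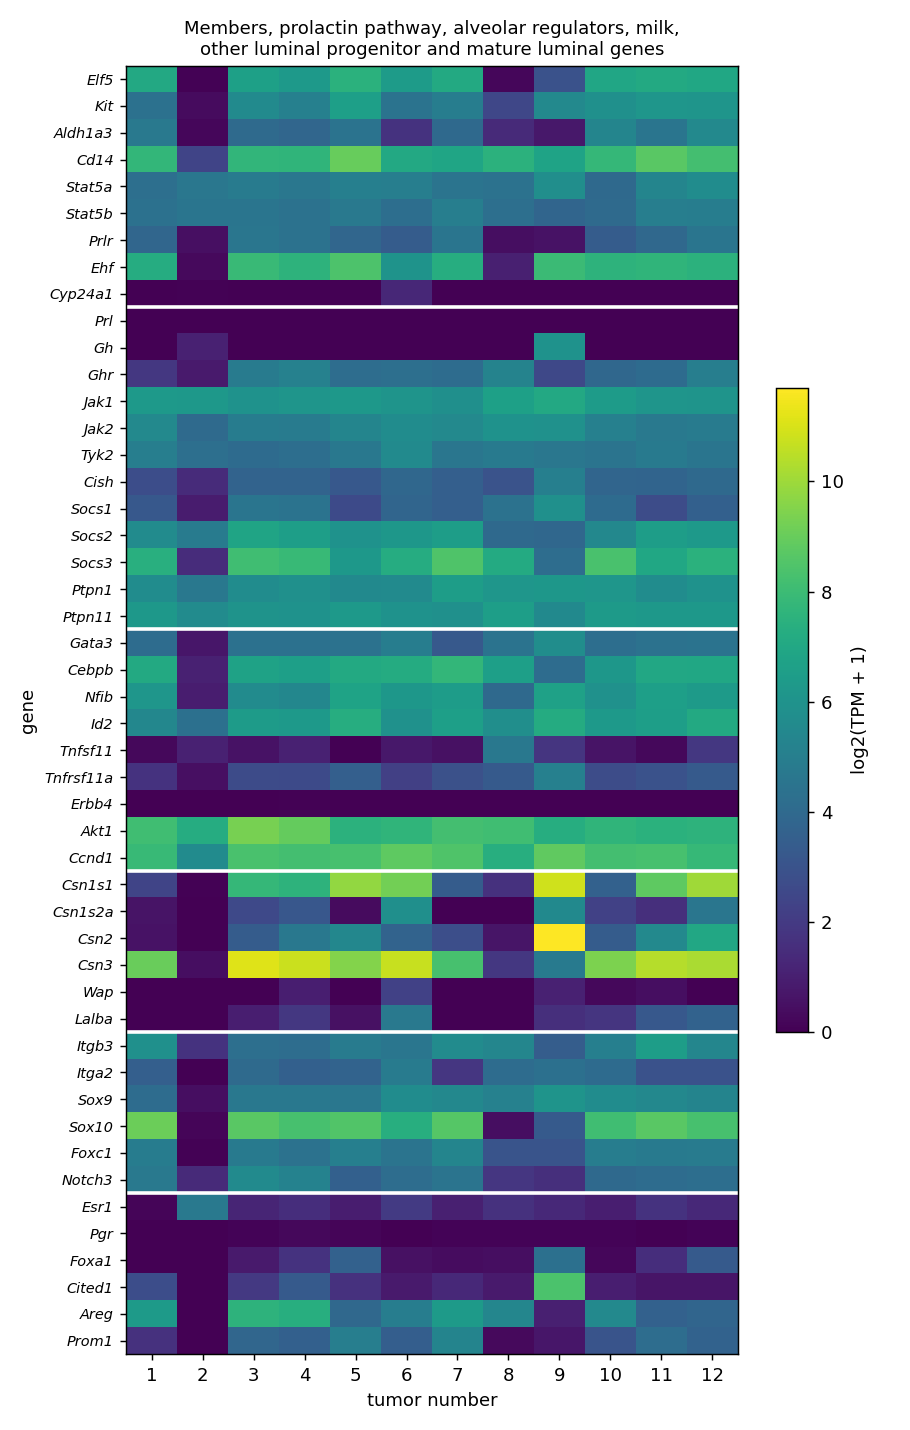
Heatmap of log2(TPM + 1) (colour) in the 12 tumors (columns) for the 9 genes and, below each white line, the other genes of the prolactin pathway, alveolar regulators, milk genes, other luminal progenitor genes and mature luminal genes (rows). Tumor 2 is dark in the milk and other luminal progenitor genes and not in the kinases, *Stat5a*, *Stat5b* or *Esr1*, and tumor 9 is bright in *Csn2* (3323 TPM), *Csn1s1*, *Gh* and *Cited1* and dark in *Prlr*.

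Among 9 further regulators of alveolar development, 8 had their lowest value, ties at 0 included, in tumor 2 and 3 their highest in tumor 9. *Gata3*, a luminal fate factor, ran from 0.65 TPM in tumor 2 to 52.4 TPM in tumor 9. *Tnfrsf11a*, the receptor RANK through which progesterone acts on progenitors, ran from 0.38 TPM in tumor 2 to 33.7 TPM in tumor 9. Its ligand gene *Tnfsf11* was 24.4 TPM in tumor 8 and at most 2.70 TPM elsewhere. *Cebpb*, needed for alveolar cells to form, was 1.09 TPM in tumor 2, 16.3 TPM in tumor 9 and 71.2 to 212 TPM in the others. *Erbb4*, a receptor that activates STAT5A in lactation, did not exceed 0.05 TPM.

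Of 6 other genes of luminal progenitors, all had their lowest value in tumor 2. *Sox10*, a factor of neural crest and mammary progenitors, was 0.10, 0.36 and 8.97 TPM in tumors 2, 8 and 9 and between 160 and 536 TPM in the other 9, the same division of tumors as for *Elf5*. *Foxc1* was 0.05, 7.32 and 7.20 TPM in these 3 tumors and 20.0 to 39.0 TPM in the others. *Sox9* had no such division, with 34.2 TPM in tumor 8 and its highest value, 66.5 TPM, in tumor 9. Of 6 mature luminal genes, *Pgr*, the progesterone receptor, stayed at or below 0.21 TPM and *Esr1*, the estrogen receptor, at or below 2.98 TPM outside tumor 2, where it was 25.8 TPM. The rest of this list was higher in some tumors. *Areg* reached 191 TPM in tumor 3, *Prom1* 38.1 TPM in tumor 7, and *Foxa1* and *Cited1* 19.0 and 337 TPM in tumor 9.

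*Cyp24a1* encodes the enzyme that inactivates vitamin D, and lies at chr2:170482708-170497145 in GRCm38. It was listed at 0 in 10 tumors. Tumor 2 had 0.03 TPM and tumor 6 had 1.46 TPM. *Vdr*, the vitamin D receptor that induces it, was detected in all tumors, from 6.66 TPM in tumor 2 to 148 TPM in tumor 11, and was 114 TPM in tumor 6. *Cyp27b1*, the activating enzyme, was also highest in tumor 6, at 1.58 TPM, followed by tumors 8 and 9 with 1.56 and 1.46 TPM. A neighbouring gene on the opposite strand, *Pfdn4*, overlaps *Cyp24a1* in 83 exonic bases and reached 122 TPM. Over 9 mice r between *Cyp24a1* and *Vdr* was 0.31 (exact permutation p = 0.42, adjusted p = 0.45). With *Cyp24a1* at 0 in all but 2 tumors, r without the 2 mice farthest from its median could not be computed, and without tumors 2 and 8 it was 0.36.

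Fat cells are a further source of receptors for hormones, so *Prlr* was read beside 5 adipocyte genes, *Adipoq*, *Fabp4*, *Plin1*, *Lep* and *Cidec*. Their sum ran from 12.4 TPM in tumor 1 to 351 TPM in tumor 4, where *Prlr* was 13.7 and 20.3 TPM. Over 9 mice r between *Prlr* and their median was 0.14 (exact permutation p = 0.66, adjusted p = 0.66) and rho 0.05, and without the mice of tumors 2 and 8, those farthest from the median of *Prlr*, r was -0.33.

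Tumors of 1 mouse were compared with tumors of different mice to see whether these genes were alike within an animal. *Elf5* was 100 and 79.0 TPM in tumors 3 and 4, and 121, 135 and 123 TPM in tumors 10, 11 and 12. *Ehf* was 244 and 186 TPM, and 187, 200 and 180 TPM. *Kit* was 47.2 and 33.5 TPM, and 57.3, 69.7 and 68.6 TPM. These 3 genes therefore differed by at most 1.41 times among sister tumors. *Stat5a* was 15.1, 38.7 and 51.2 TPM in tumors 10, 11 and 12, a range of 3.39 times, and *Stat5b* was 15.5, 31.6 and 30.3 TPM, a range of 2.04 times. In tumors 3 and 4, in contrast, *Stat5a* differed by 1.20 times and *Stat5b* by 1.12 times, less than *Elf5* (1.27), *Ehf* (1.31) and *Kit* (1.41). *Aldh1a3*, *Cd14* and *Prlr* ranged by 1.97, 1.88 and 2.29 times in tumors 10, 11 and 12 and by 1.17, 1.03 and 1.15 times in tumors 3 and 4.

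In limma's moderated F test of mouse, with Benjamini-Hochberg adjustment over 16779 genes, 6 of the 8 genes tested passed 0.05. Over all genes tested 42.9% passed, so a pass was common. The adjusted p was 0.0014 for *Elf5* and *Ehf*, 0.0020 for *Kit*, 0.0043 for *Cd14*, 0.0056 for *Aldh1a3* and 0.0091 for *Prlr*, against 0.56 for *Stat5b* and 0.72 for *Stat5a*. *Cyp24a1* was below the filter of a mean of 1 TPM. Without tumors 2 and 8, 5 of the 8 passed against 18.2% of all genes, and *Cd14* did not (limma adjusted p = 0.062).

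The spread within a mouse in this test comes from only the 2 mice with several tumors, so the other 7 mice are assumed to vary in the same way. With the animal labels permuted exactly over the tumors (7920 assignments, one-sided), p was 0.0013 for *Kit*, 0.0057 for *Ehf*, 0.0076 for *Elf5* and 0.024 for *Aldh1a3*, and 0.063 for *Cd14*, 0.12 for *Prlr*, 0.32 for *Cyp24a1*, 0.67 for *Stat5b* and 0.87 for *Stat5a*. *Elf5* differed on average by 0.17 on the log2 scale between tumors of 1 mouse and by 2.87 between tumors of different mice. For *Stat5a* the values were 0.91 and 0.62, the reverse order. That order rests on tumors 10, 11 and 12. With their mouse left out, F rose from 0.66 to 9.16 for *Stat5a* (limma adjusted p = 0.076) and from 0.95 to 6.52 for *Stat5b* (limma adjusted p = 0.10), with tumors 3 and 4 then the only sister pair. Without tumors 2 and 8 (2520 assignments) the exact permutation p was 0.0040 for *Kit*, 0.018 for *Ehf*, 0.020 for *Elf5* and 0.049 for *Aldh1a3*, and 0.074 for *Cd14*, 0.27 for *Prlr*, 0.50 for *Cyp24a1*, 0.55 for *Stat5b* and 0.82 for *Stat5a*. The difference of *Elf5* between tumors of different mice was then 1.22 and that of *Stat5a* 0.67.

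**Figure D5:**
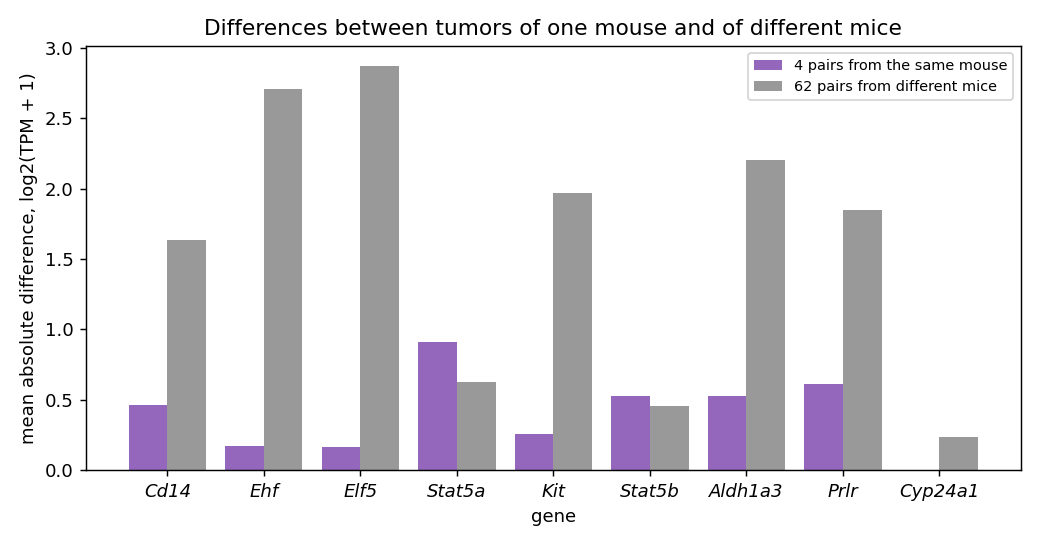
Mean absolute difference in log2(TPM + 1) (bars, vertical axis from 0) for the 4 sister pairs, which shared a mouse, and the 62 pairs from different mice, for each of the 9 genes. The bars for the same mouse are the shorter ones for *Elf5* (0.17 against 2.87), *Ehf*, *Kit*, *Cd14*, *Aldh1a3* and *Prlr* and the taller ones for *Stat5a* and *Stat5b*.

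The genes whose levels were most like those of each gene were listed as a description, by the smaller of Pearson's r and Spearman's rho over 9 mice among genes with a mean of 5 TPM or more. All values rest on 9 points that share the contrast between tumors 2 and 8 and the rest, so r without these tumors is given second. For *Elf5* they were *Sertad4* (r = 0.98, then 0.90) and *St14*, a membrane protease of epithelia (0.96, then 0.88). For *Ehf* they were *Spint2*, a protease inhibitor (0.96, then 0.57), *Kit* itself (0.95, then 0.80) and *Sptb* (0.95, then 0.90). For *Kit* they were *Sptb* (0.94, then 0.85), *Bbc3* (0.97, then 0.86) and *Cadps2* (0.94, then 0.71).

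For *Prlr* they were *Gabrp*, a GABA receptor subunit (0.96, then 0.95), *Elf3* (0.93, then 0.97) and *Fbxo28* (0.93, then 0.99). For *Aldh1a3* they were *Prdm10* (0.94, then 0.91), the entry Mir140 (0.96, then 0.96) and *Nipal2* (0.93, then 0.93). For *Cd14* they were *Pomgnt1* (0.95, then 0.77) and *Tanc2* (0.92, then 0.63). No macrophage gene of the list of 7 was among them. For *Stat5a* they were *Isoc1* (0.98, then 0.98), *Ccdc189* (0.95, then 0.96) and *Wbscr27* (0.94, then 0.93), and for *Stat5b* AI506816 (0.94, then 0.94), *Pus7* (0.97, then 0.98) and Gm16586 (0.92, then 0.98).

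Genes beside each gene on the chromosome did not all share its pattern. On the far side of *Elf5*, *Cat*, catalase, ran from 25.2 to 110 TPM, and on the far side of *Ehf*, *Apip* ran from 20.9 to 49.7 TPM, both present in every tumor including tumors 2 and 8. The neighbours of *Kit* are *Pdgfra*, a fibroblast receptor that ran from 1.40 to 111 TPM with its highest value in tumor 8, and *Kdr*, an endothelial receptor that ran from 1.08 to 15.6 TPM. *Lrrk1* and *Asb7*, beside *Aldh1a3*, ran from 7.54 to 31.5 and from 5.11 to 13.3 TPM. The near-absence of *Elf5* and *Ehf* from tumors 2 and 8 was thus not shared by the next genes on either side of the pair.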

How the data were processed

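Tumor RNA was sequenced as 75-base paired-end reads. Per the labels and the paper's methods, the authors trimmed adapters with fastq-mcf, used HISAT2 for alignment to the transcriptome of GRCm38 and StringTie 2.1.6 for quantification, and deposited 1 TPM per Ensembl gene and tumor with no pooling. How transcripts were summed per gene is not given in the sources used here. TPM keeps no depth, and a few abundant genes lower all others.

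From the deposited TPM, log2(TPM + 1) was computed and tumors of a mouse were averaged. Exact sign-flip tests (2 contrasts) and exact permutations of pairings (12 relations; 100000 resamples where tumors were the units) were two-sided, with Benjamini-Hochberg adjustment over each family (SciPy 1.17.1). Mouse was tested with limma 3.58.1 (R 4.3.3, F test, trend) over genes averaging at least 1 TPM, and this script was tested on simulated data. The 9 genes and the gene lists were chosen with earlier results of these data known. Named genes are the 9, the list genes, the genes overlapping or beside the 9 in the annotation, and up to 3 most alike genes of each. Some genes that these rules name are not reported here. Of 47593 identifiers, 47137 matched the GRCm38 annotation. Alternatives were a pseudocount of 0.1, each tumor as a unit, TPM without mitochondrial genes, other filters on low values and each mouse left out, and, chosen after seeing the data, leaving out tumors 2 and 8.

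Lists not described with the results had these ranges of the median TPM over tumors: myoepithelial 0.416 to 9.05, T cell 0.311 to 14.5 and fibroblast 2.33 to 285.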

Additional observations from a re-analysis of the deposited data

Results flagged for a closer look

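In each of the 9 genes the highest and lowest mouse were set against the rest by the gap to the nearest mouse as a share of the whole range on the log2 scale (Dixon's test at the 95% level), and 3 were picked out. Chance alone picks out about 1 in 20 groups. The mouse of tumor 2 was lowest in *Cd14*, at 2.40 against 6.80 for the nearest, a share of 0.669. The mouse of tumor 9 was highest in *Stat5a*, at 5.78 against 5.03, a share of 0.501. The mouse of tumor 6 was highest in *Cyp24a1*, at 1.30 against 0.047, a share of 0.964, which the zeros of *Cyp24a1* in 7 of the 9 mice make all but certain for any gene seen in so few mice, so this one says little. *Elf5*, *Ehf* and *Prlr* were not picked out, since more than 1 mouse was low in each.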

How the results depend on the processing

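Of the alternative values for single results, 379 stayed the same, 19 passed where the reported value did not, 14 no longer passed, 11 changed sign and 1, a mean level, moved. For a contrast or relation, the same meant an unchanged sign and side of the threshold. For a mouse effect it meant the side of the threshold only. For a mean level, which has no threshold, it meant a shift smaller than the SD over mice. Of the 13 alternative numbers of genes differing between mice, 3 were more than 1.5 times lower. No depth is known, and 9 mice and 4 pairs of sister tumors limit every test. No paired analysis was possible because the series holds 1 group, so no replicate numbers pair samples of different groups. The contrasts within mice are between genes. With a pseudocount of 0.1, the mean level of *Cyp24a1* was -2.84, *Ehf* minus *Elf5* was 1.26, and r was 0.92 for *Elf5* with *Ehf*, 0.85 for *Elf5* with *Kit*, 0.74 for *Kit* with *Aldh1a3* and 0.92 for *Elf5* with the epithelial genes, the contrast and these relations then passing.

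With each tumor as a unit, which counts sister tumors as independent, *Stat5b* minus *Stat5a* was -0.35, *Ehf* minus *Elf5* 0.93, and r 0.88 for *Elf5* with *Ehf*, 0.83 with *Kit* and 0.88 with the epithelial genes and 0.73 for *Kit* with *Aldh1a3*, all passing, and r for *Stat5a* with *Stat5b* turned to 0.17. Without mitochondrial genes *Ehf* minus *Elf5* was 0.98 and passed (exact permutation, adjusted p = 0.047). By exact permutation of the animal labels, the difference between sister pairs and other pairs was -1.17 for *Cd14* and -1.24 for *Prlr*, and neither passed. Without tumors 2 and 8 these were -0.43 and -0.59, again not passing. Over all 9 mice, where the separate groups of tumors set the value, r of *Elf5* was 0.95 with *Prlr* (exact permutation, adjusted p = 0.038), 0.87 with *Ehf*, 0.81 with *Kit*, 0.88 with the epithelial genes and 0.42 with the milk genes, and the first alone passed.

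Without tumors 2 and 8, r of *Elf5* was 0.94 with *Prlr*, no longer passing, -0.13 with *Ehf*, 0.04 with *Kit*, -0.49 with the epithelial genes and -0.56 with the milk genes, r of *Cd14* with the macrophage genes was -0.42 and r of *Prlr* with the adipocyte genes -0.33. The F value of *Cd14* was then 8.22, not passing, and 3058 genes differed between mice in place of 7204.

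With each mouse left out in turn, *Stat5b* minus *Stat5a* ran from -0.47 to -0.17 (passing without tumor 7) and *Ehf* minus *Elf5* from 0.47 to 1.15 (passing without tumor 6 or 7). For *Elf5*, r ran from 0.78 to 0.99 with *Ehf*, 0.68 to 0.90 with *Kit*, 0.93 to 0.97 with *Prlr* (passing in 3 of 9), 0.19 to 0.61 with the milk genes and 0.80 to 0.99 with the epithelial genes. It ran from -0.63 to 0.11 for *Stat5a* with *Stat5b* (0.11 without tumor 9), 0.50 to 0.87 for *Kit* with *Aldh1a3*, 0.46 to 0.90 for *Stat5a* with *Cish*, -0.79 to 0.38 for *Cyp24a1* with *Vdr* (-0.79 without tumor 6), -0.22 to 0.89 for *Cd14* with the macrophage genes (-0.22 without tumor 2), 0.38 to 0.66 for *Kit* with the mast cell genes and -0.053 to 0.46 for *Prlr* with the adipocyte genes. Without tumor 9, *Elf5* with *Ehf*, *Kit* and the epithelial genes and *Kit* with *Aldh1a3* passed (exact permutation, adjusted p = 0.013 to 0.026). The F value ran from 7.14 to 523 for *Cd14* (not passing without tumor 2) and from 17.6 to 102 for *Prlr* (not passing without the mouse of tumors 3 and 4), and the number of genes differing between mice from 2320 without that mouse to 7946, with 3841 without tumor 2. The cause of these changes was not tested.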
